A study of Mus musculus with 2 samples.

Results

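The transcripts described here are the 1950 entries of the annotated long noncoding RNA (lncRNA) table whose FANTOM3 clone identifier starts with fantom3_4930, fantom3_4931, fantom3_4932 or fantom3_4933 (the fantom3_493x clones). They were chosen by identifier alone, and make up 1950 of the 33353 FANTOM3 clones and of the 37072 annotated lncRNA entries in all. The fantom3_4930 series holds 1383 of them, the fantom3_4931 series 85, the fantom3_4932 series 158 and the fantom3_4933 series 324. RNA was sequenced from primary hepatocytes of wild type male C57BL/6J mice, and the design holds 1 library of mice given mineral oil (the oil library) and 1 of mice given 2.5 ml/kg of CCl4 as a 20% solution in mineral oil (the CCl4 library). The mice were obtained at 5 weeks of age according to the methods, and both groups received 2 injections a week for 8 weeks according to the labels and for 4 weeks according to the methods. Hepatocytes were obtained by perfusion of the liver with pronase and collagenase and a density gradient, and how many mice were pooled for a library is not given in the sources used here. With 1 library for each treatment there was no replicate error to set a difference against, so no test was made, and every difference below is a difference between these 2 libraries.

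FANTOM3 clones are mouse complementary DNAs that were cloned as full-length copies of transcripts and sequenced by RIKEN, and the first characters of a clone number name the library from which it was picked. The libraries behind the fantom3_493x clones, like the fantom3_1700 library, were made from adult male testis, a tissue that is known for transcribing an unusually large part of the genome in its germ cells. A clone in an lncRNA table may be a transcript of its own, an unspliced or alternative form of a coding gene, or a product of an intron or an untranslated end. CCl4 is turned into a reactive radical in hepatocytes by cytochrome P450 enzymes, and its repeated injection leads to liver fibrosis.

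Of the 1950 clones, 726 (37.2%) carry a number that is a symbol or synonym of exactly 1 gene in the RefSeq gene table of GRCm38.p6, and together they name 696 genes. Of these clones, 174 carry the number of a protein-coding gene and 541 that of an lncRNA gene, and 11 lie on chromosome X. A further 1218 clones carry no gene name, so their positions are not given here. The number links a clone to a gene by name and does not say which part of the gene the clone covers. For orientation, the RefSeq promoters (250 bases before to 50 bases after a listed start, build GRCm38.p6) are shown for 4 of the abundant clones with a gene name. These 4 were picked after their values were seen, since comparisons of clone values below turn on them. No comparison below uses a promoter. The windows of the Tob2 and Slc31a1 clones, also abundant, are described without their sequence. Cpb2 was lower in the CCl4 library, Prss23 and the lncRNA gene Oip5os1 had higher values there, and Serpinb6a is the gene whose clone and mRNA differed most. They lie at chr14:75242037-75242336 on the plus strand (Cpb2), chr7:89527138-89527437 on the minus strand (Prss23, 1 of 7 listed starts), chr13:34002745-34003044 on the minus strand (Serpinb6a, 1 of 2 listed starts) and chr2:119594046-119594345 on the plus strand (Oip5os1). Capitals mark matches, on either strand, to CCAAT or to the GC box GGGCGG, and no window held the TATA box TATAAA.
Cpb2: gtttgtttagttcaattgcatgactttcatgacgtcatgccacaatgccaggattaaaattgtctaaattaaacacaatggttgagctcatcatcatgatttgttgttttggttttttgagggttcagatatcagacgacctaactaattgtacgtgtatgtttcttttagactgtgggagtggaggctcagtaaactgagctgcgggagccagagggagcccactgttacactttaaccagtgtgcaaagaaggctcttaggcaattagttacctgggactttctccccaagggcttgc
Prss23: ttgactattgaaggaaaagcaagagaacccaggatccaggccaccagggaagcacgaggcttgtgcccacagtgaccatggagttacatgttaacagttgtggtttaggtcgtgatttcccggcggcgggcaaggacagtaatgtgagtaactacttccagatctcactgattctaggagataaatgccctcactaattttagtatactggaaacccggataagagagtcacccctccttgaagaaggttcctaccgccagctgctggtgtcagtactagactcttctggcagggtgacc
Serpinb6a: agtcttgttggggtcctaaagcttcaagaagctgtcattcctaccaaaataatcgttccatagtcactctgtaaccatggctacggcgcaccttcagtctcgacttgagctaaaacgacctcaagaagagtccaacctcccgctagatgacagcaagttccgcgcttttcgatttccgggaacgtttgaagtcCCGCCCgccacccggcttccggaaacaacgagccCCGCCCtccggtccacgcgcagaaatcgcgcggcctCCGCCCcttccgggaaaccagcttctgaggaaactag
Oip5os1: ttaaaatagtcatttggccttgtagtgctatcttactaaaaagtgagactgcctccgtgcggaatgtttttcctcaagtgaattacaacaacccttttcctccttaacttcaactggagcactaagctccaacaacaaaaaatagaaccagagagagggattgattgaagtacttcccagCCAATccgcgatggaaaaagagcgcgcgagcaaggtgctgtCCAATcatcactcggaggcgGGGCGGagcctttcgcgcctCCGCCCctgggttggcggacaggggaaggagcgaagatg
The Cpb2 and Prss23 windows held none of the 3 motifs, with a GC content of 42.7% and 49.7%. The Serpinb6a window held 3 GC boxes at a GC content of 55.7%, and the Oip5os1 window 2 CCAAT boxes and 2 GC boxes at 50%. Of the windows not shown, that of Tob2 held 2 GC boxes at 58%, and that of Slc31a1 held 1 CCAAT box and 2 GC boxes at 64%. Among all 32851 promoters of the same length, 13.6% held TATAAA, 37.4% CCAAT and 35.7% GGGCGG, and the median GC content was 52.7%. A match describes the letters of the window only.

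Values are RPKM (reads scaled to transcript length and to library size), and the smallest value above 0 was 1.0001 for oil and 1.00064 for CCl4, so that a clone listed at 0 may hold reads below 1 RPKM. The RPKM steps of short genes correspond to library totals of 57992529 reads for oil and 64655494 for CCl4. The reads of each clone, recovered as a lower bound from those steps, were at least 7 in the smaller of the libraries, with a median of 191, for the 244 clones at 1 RPKM or more in both. Intervals given below are 95% exact (Clopper-Pearson) intervals of a ratio of such reads and cover counting error only. The median mRNA transcript was 0.33 higher on the log2 scale in the CCl4 library (n = 14854).

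The levels of cell type markers differed between the libraries. All 10 hepatocyte markers were detected, and 6 were lower by a log2 ratio of at least 1 in the CCl4 library, with a summed level of 20566 RPKM in oil and 10909 RPKM in CCl4. Over all 10689 mRNA genes at 1 RPKM or more in both libraries, 5.59% were lower and 15.1% higher by that measure. Albumin (Alb) went from 8656 to 6476 RPKM, and Cyp2e1, the P450 enzyme that activates CCl4, from 645 to 128 RPKM. Of 10 stellate cell and myofibroblast markers, 9 were measured in both libraries and all 9 were higher in CCl4, with a summed level of 78.1 and 887.8 RPKM, and Col1a1 stood at 3.02 and 130.5 RPKM. The 7 measured Kupffer cell and macrophage markers summed to 996 and 1964 RPKM, with 5 of 7 higher by a log2 ratio of at least 1 and Clec4f slightly lower (282.6 and 254.5 RPKM). The 6 markers of sinusoidal endothelium summed to 424 and 710 RPKM. Of the 4 lymphocyte markers in the table, Cd79a (1.403 and 5.62 RPKM) and Ms4a1 (0 and 1.95 RPKM) were higher in CCl4, Nkg7 was lower (5.09 and 3.18 RPKM) and Cd3e was listed at 0 in both. The part of these shifts in the clones' ratios was not tested, and in such bulk samples fewer cells of a type and less RNA per cell cannot be told apart. Testis germ cell genes were mostly listed at 0, as 10 of 12 spermatogonium and spermatocyte markers and 12 of 14 spermatid markers stood at 0 in both libraries, among them the protamines Prm1 and Prm2 and the transition proteins Tnp1 and Tnp2. The exceptions were Zbtb16 (13.1 and 8.11 RPKM in oil and CCl4), Sycp3 (3.18 and 1.35 RPKM), Odf2 (3.47 and 6.57 RPKM) and Tssk6 (0 and 2.48 RPKM). Of 8 testis somatic cell markers 5 were at 0 in both libraries, and Insl3 was the most abundant of the rest (5.58 and 8.56 RPKM).

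Most of the clones were not detected in hepatocytes. At 1 RPKM or more the oil library held 259 clones (13.3%) and the CCl4 library 284 (14.6%), and 1651 (84.7%) were listed at 0 in both. Of the 299 clones detected in either library, 244 (81.6%) were at 1 RPKM or more in both, 15 in oil only and 40 in CCl4 only, and over all annotated lncRNA entries the share detected in both was 78.1% of 9754. The other 31403 FANTOM3 clones were detected more often, at 22.03% in oil and 25.4% in CCl4. No test was made of this difference, as clones are not replicates. The 966 clones of the fantom3_1700 series, which is also from testis, lay between, at 16.7% and 18.9%. Clones whose identifier starts with 0, 1 or 2 (3342, the fantom3_1700 series included) reached 42.1% and 46.7%, and the 1934 clones of the F series 15.0% and 17.7%.

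The series differed among themselves in detection. The fantom3_4930 clones were detected least often, at 11.8% in oil and 13.0% in CCl4, followed by the fantom3_4933 clones at 15.1% and 16.4%. The fantom3_4932 clones stood at 19.0% and 20.9%, and the fantom3_4931 clones at 20.0% and 21.2%, the last from only 85 clones. The order was the same in both libraries.

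The kind of gene that carries the clone number separated the clones further. Of the 174 clones with the name of a protein-coding gene, 38.5% were detected in oil and 40.8% in CCl4. Of the 541 with the name of an lncRNA gene, only 5.36% and 5.73% were detected, and of the 1218 with no gene name 13.1% and 14.5%. Within each of these classes the other FANTOM3 clones had higher shares, at 52.7% and 60.1% for coding names (n = 2509), 12.3% and 15.4% for lncRNA names (n = 1233) and 19.7% and 22.7% for clones without a name (n = 27598), as the plot of shares by class shows. Detection of the coding-named clones went with that of the gene. Of 95 clones whose mRNA was at 1 RPKM or more, 70 (73.7%) were detected, against 0 of 66 whose mRNA was listed at 0 in both libraries. Of the 13 whose gene had no entry in the mRNA table, 2 were detected. Clone and mRNA may share reads, but clones were matched to genes by name only, so this cannot be told.

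**Figure D1:**
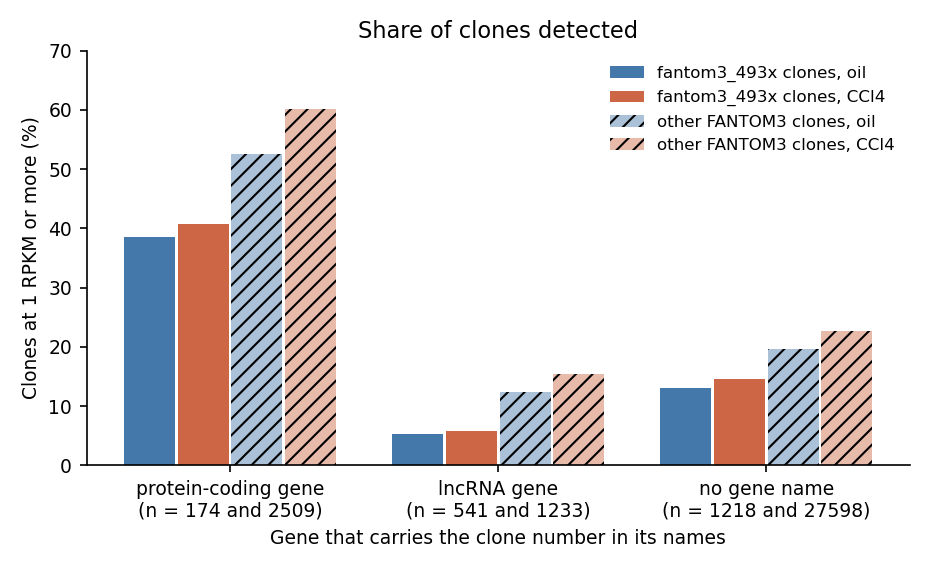
Share of clones at 1 RPKM or more (vertical axis, %), by the kind of RefSeq gene that carries the clone number, for the fantom3_493x clones (filled) and the other FANTOM3 clones (hatched) in the oil and CCl4 libraries. In all 3 classes the fantom3_493x clones are below the others, for example 38.5% against 52.7% in oil for coding names.

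Levels of the detected clones were low apart from a few. The median level was 2.55 RPKM in oil and 2.85 RPKM in CCl4, close to the 2.82 and 2.99 RPKM of the other FANTOM3 clones. There were 36 clones at 10 RPKM or more in oil and 40 in CCl4, and 4 and 5 clones at 100 RPKM or more. All 1950 clones summed to 2921 RPKM in oil and 2944 RPKM in CCl4, of which the top 4 clones of each library held 51.3% and 44.7%.

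The most abundant clone was fantom3_4931410K23, at 633.7 RPKM in oil and 740.3 RPKM in CCl4, a log2 ratio of 0.22. Next came fantom3_4930572N12, at 439.4 and 268.2 RPKM (log2 ratio -0.71), and fantom3_4930581L11, at 272.9 and 140.1 RPKM (log2 ratio -0.96). Neither has a gene name, and both were lower in CCl4 without reaching the log2 ratio of -1 at which a clone is called lower here. fantom3_4930405N22 followed at 152.4 and 167.2 RPKM, and fantom3_4930419D09 held 60.1 and 56.2 RPKM, so these were nearly level. fantom3_4930578O05 was at 59.8 and 106.6 RPKM (log2 ratio 0.83). In contrast, fantom3_4930521O19 went from 92.8 to 36.5 RPKM, a log2 ratio of -1.34 with a counting interval of -1.48 to -1.22. It was the only one of the 8 most abundant clones that was called lower. fantom3_4930534G10 was the only one called higher, at 29.1 and 65.2 RPKM, a log2 ratio of 1.16 (interval 1.07 to 1.26). Its number belongs to H2bu1-ps (chr11:58954048-58954512), a transcribed pseudogene of the histone H2B family, which has near-identical copies. The match is by number only. The clone's recovered reads, at least 1293 and 3229, fit only a transcript longer than this span, so the clone is not this pseudogene alone. Which other sequence it covers is not known here. Reads that fit several copies may make the clone's count uncertain, which was not tested. The first 7 of the 8 carry no gene name. Scaled to the median mRNA, the call of fantom3_4930534G10 ends (log2 ratio 0.84), and fantom3_4930572N12 and fantom3_4930581L11 are called lower (-1.04 and -1.29).

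**Figure D2:**
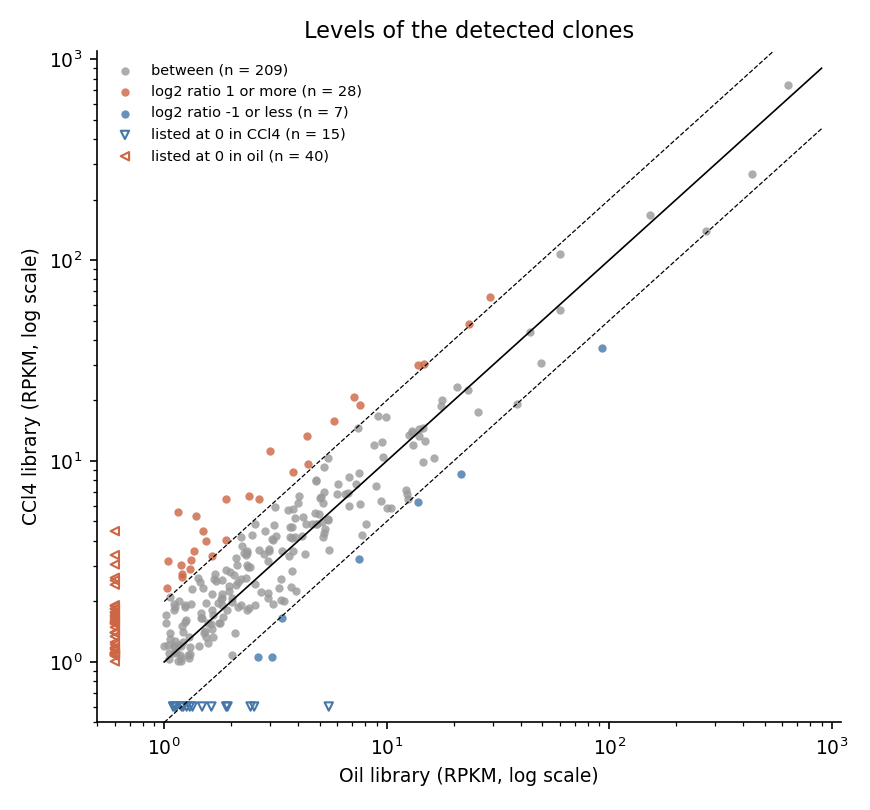
RPKM of each detected clone in the oil (horizontal) and CCl4 (vertical) libraries on log scales, with clones listed at 0 in a library drawn as triangles at the edge, equality as a solid line and log2 ratios of 1 and -1 as dashed lines. The 209 grey clones lie between the dashed lines, 28 are called higher and 7 lower, and the most abundant clone is at 633.7 and 740.3 RPKM.

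Ratios were taken for the 244 clones at 1 RPKM or more in both libraries, as the log2 of CCl4 over oil RPKM. Most clones differed little, since 141 (57.8%) were within 0.5 of equality. The median log2 ratio was 0.18, with quartiles of -0.17 and 0.61 and a range of -1.52 to 2.27, and 159 clones (65.2%) were above 0. At a log2 ratio of at least 1 in either direction, 28 clones (11.5%) were called higher and 7 (2.87%) lower, with 209 between. The background over all 7615 annotated lncRNA entries was 10.3% higher and 3.65% lower, so the shares of the clones lay near it. When the values were scaled so that the median mRNA was equal in both libraries, 13 clones were called higher and 23 lower. The median became -0.14, so the excess of higher clones depends on the scaling. This scaling lowers the log2 ratio of every entry by 0.33, and the background shares under it were not counted. The 13 and 23 clones can thus not be set against the 10.3% and 3.65% above. All 7 lower clones, and 13 of the 28 higher clones, kept their call when scaled. The recovered reads gave a counting interval that excluded 0 for each of the 28 higher and 7 lower clones, as it did for 70 of the 209 clones between on the upper side and for 36 on the lower side. The interval lay wholly past the log2 ratio of 1 or -1 for 14 of the higher and 4 of the lower clones.

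Over all clones the distribution was close to that of the other FANTOM3 clones. Of 6508 such clones in both libraries, 9.97% were called higher and 3.47% lower, the median log2 ratio was 0.27 (quartiles -0.10 and 0.63), and 57.01% were within 0.5 of equality. The median of the fantom3_493x clones thus differed by -0.093 on the log2 scale, which was not tested. The scaling shifts all ratios alike, so by construction it leaves this difference unchanged. The 154 clones of the fantom3_1700 series in both libraries had a median of 0.22, with 17 called higher and 3 lower. Among the series, the median log2 ratio was 0.13 for fantom3_4930 (n = 155), 0.24 for fantom3_4931 (n = 16), 0.31 for fantom3_4932 (n = 28) and 0.18 for fantom3_4933 (n = 45). The clones called higher and lower numbered 20 and 4 in the fantom3_4930 series, 0 and 0 in fantom3_4931, 3 and 0 in fantom3_4932, and 5 and 3 in fantom3_4933. By gene name, the median was 0.15 for the 66 coding-named clones (6 higher, 4 lower), -0.15 for the 26 lncRNA-named clones (2 higher, 0 lower) and 0.19 for the 149 without a name (19 higher, 3 lower). The other FANTOM3 clones had medians of 0.31 for 1278 coding-named clones (125 higher, 35 lower), 0.25 for 137 lncRNA-named clones (11 higher, 13 lower) and 0.26 for 5074 without a name (512 higher, 178 lower). Among these 3 classes the lncRNA-named clones differed most from the others in their median, over 26 clones only and with no test.

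**Figure D3:**
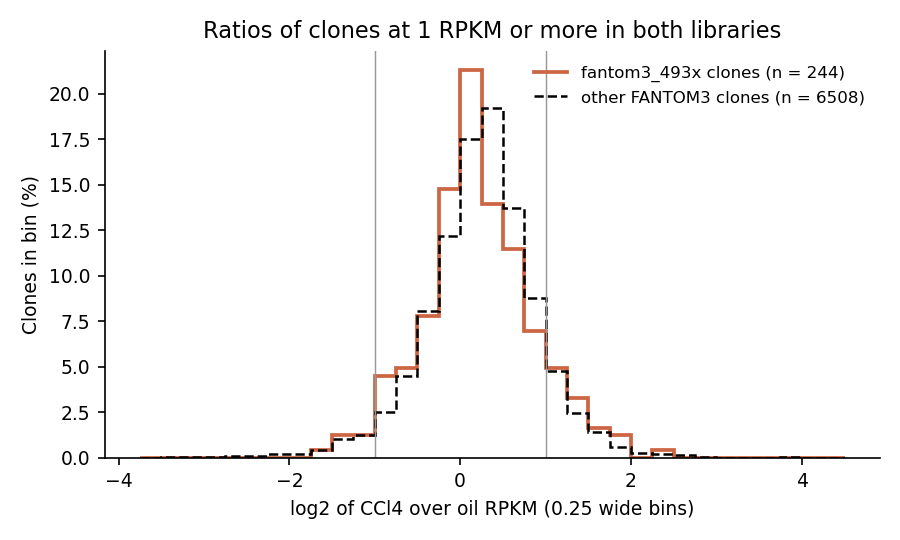
Distribution of log2 ratios of CCl4 over oil RPKM in bins of 0.25 (horizontal), as the share of clones in each bin (vertical, %), for the 244 fantom3_493x clones and the 6508 other FANTOM3 clones at 1 RPKM or more in both libraries. Grey lines mark log2 ratios of -1 and 1, and the curves largely overlap, with medians of 0.18 and 0.27.

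The 8 highest ratios among clones with a mean of at least 2 RPKM lay between 1.55 and 2.27 on the log2 scale, and all 8 stayed past 1 when scaled to the median mRNA (1.22 to 1.95). The highest was that of fantom3_4933435C21, at 1.15 RPKM in oil and 5.56 RPKM in CCl4, a log2 ratio of 2.27 that rests on at least 94 and 507 reads (interval 1.95 to 2.61). Its number belongs to Slc29a3 (chr10:60712072-60752849), a nucleoside transporter of lysosomes, whose mRNA read nearly the same values (1.17 and 5.46 RPKM). It was the only clone past a log2 ratio of 2, and scaling brings it below. fantom3_4930568P13 carries the number of Nckap1l (chr15:103453783-103502860), a subunit of the actin-regulating WAVE complex in blood cells. The clone was at 7.10 and 20.7 RPKM, a log2 ratio of 1.55 on at least 905 and 2946 reads (interval 1.44 to 1.65), and the mRNA was at 10.2 and 28.6 RPKM. The macrophage markers summed to 996 and 1964 RPKM and the lymphocyte markers, which did not all move one way, to 6.49 and 10.7 RPKM, and their part in the Nckap1l values was not tested. fantom3_4930572J05 carries the number of Them6 (chr15:74721234-74724373), a member of the thioesterase superfamily, and was at 1.04 and 3.19 RPKM (log2 ratio 1.61), while the mRNA was at 1.44 and 3.61 RPKM.

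The other 5 of the highest ratios belong to clones without a gene name. fantom3_4933406H15 was at 1.38 RPKM in oil and 5.31 RPKM in CCl4, a log2 ratio of 1.94 (interval 1.69 to 2.20). fantom3_4930472J19 was at 2.99 and 11.2 RPKM (log2 ratio 1.90), and fantom3_4933406O22 at 1.90 and 6.46 RPKM (log2 ratio 1.77). fantom3_4933401P20 went from 4.37 to 13.3 RPKM (log2 ratio 1.61) and fantom3_4932420I20 from 1.49 to 4.50 RPKM (log2 ratio 1.59). All 5 had intervals wholly above 1. No position or function can be given for these 5 clones here.

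Clones called lower were fewer than those called higher on the RPKM values as deposited, with 7 against 28. Scaled to the median mRNA, which lowers all ratios alike, the counts were 23 lower and 13 higher. Of the 8 lowest ratios 3 belong to coding-named clones, as do 3 of the 8 highest. Both sets were drawn at a mean of at least 2 RPKM, where coding names were not counted. Without that minimum, 66 of all 244 clones are coding-named. The lowest was that of fantom3_4933440K10, without a gene name, at 3.05 RPKM in oil and 1.06 RPKM in CCl4, a log2 ratio of -1.52 on at least 258 and 100 reads (interval -1.87 to -1.19). fantom3_4930521O19, described above among the abundant clones, followed at -1.34. Level with it was fantom3_4930405E17, which carries the number of Cpb2 (chr14:75242287-75283555), the carboxypeptidase that hepatocytes secrete into plasma to slow the lysis of clots. This clone was at 21.7 and 8.57 RPKM on at least 2115 and 932 reads (log2 ratio -1.34, interval -1.45 to -1.23), and the Cpb2 mRNA was at 104.7 and 38.9 RPKM. fantom3_4933429D07 carries the number of Ppara (chr15:85734910-85806851), the nuclear receptor that turns on fatty acid oxidation in the liver. It was at 13.8 and 6.28 RPKM (log2 ratio -1.14, interval -1.25 to -1.03), with the mRNA at 12.9 and 6.51 RPKM. Hepatocyte markers summed to 20566 and 10909 RPKM, and their part in the Cpb2 and Ppara values was not tested.

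fantom3_4930518M15, with the number of Mmd2 (chr5:142563480-142608936), was at 3.38 and 1.66 RPKM (log2 ratio -1.03), while its mRNA was at 3.34 and 1.94 RPKM. fantom3_4930524A03, without a name, was at 7.53 and 3.24 RPKM (log2 ratio -1.22). The intervals of both, -1.36 to -0.70 and -1.56 to -0.88, reach above -1. The remaining clones of the 8, fantom3_4930423K06 at 38.4 and 19.2 RPKM (log2 ratio -0.997) and the abundant fantom3_4930581L11 (-0.96), just missed the threshold, and both pass it when scaled to the median mRNA (-1.32 and -1.29). A 7th clone called lower, fantom3_4933411K16, had a mean under 2 RPKM and is named after its values were seen. It was at 2.65 and 1.05 RPKM (log2 ratio -1.33), and the mRNA of the gene with its number, 4933411K16Rik, at 2.61 and 1.05 RPKM.

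**Figure D4:**
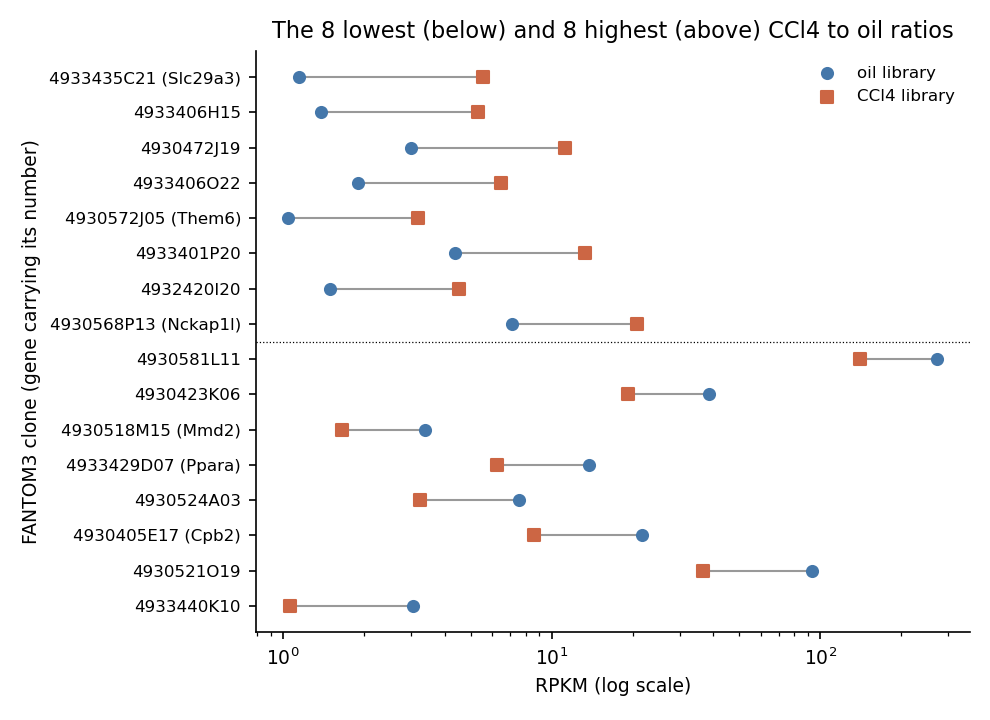
RPKM (horizontal, log scale) in the oil (circles) and CCl4 (squares) libraries of the clones with the 8 highest (above the dotted line) and 8 lowest (below) CCl4 to oil ratios among clones with a mean of at least 2 RPKM. The longest line is that of the clone named after Slc29a3, from 1.15 to 5.56 RPKM, and the 8 lower clones span mean levels from 2.06 to 206.5 RPKM.

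The 55 clones listed at 0 in 1 library were all near the limit of 1 RPKM or a few times above it. The 15 found in oil only had a median of 1.34 RPKM, and the 40 found in CCl4 only a median of 1.52 RPKM. No fold was computed for them. Highest in oil only was fantom3_4933426I16 at 5.49 RPKM, followed by fantom3_4930415I03 (2.54 RPKM), fantom3_4931406B08 (2.44 RPKM), fantom3_4933424M13 (1.93 RPKM) and fantom3_4930544F09 (1.90 RPKM). Of these, fantom3_4933424M13 carries the number of Por (chr5:135670040-135735326), the reductase that passes electrons to P450 enzymes, whose mRNA was nearly level at 51.4 and 53.1 RPKM. Highest in CCl4 only was fantom3_4932441J04 at 4.48 RPKM, named after the lncRNA gene 4932441J04Rik (chr5:57570084-57717919), while the RefSeq entry of that gene was listed at 0 in both libraries. It was followed by fantom3_4930412D03 (3.40 RPKM), fantom3_4930440E06 (3.06 RPKM), fantom3_4931406A15 (2.62 RPKM) and fantom3_4930535D10 (2.55 RPKM). The last carries the number of Ints6l (chrX:56454825-56507843), a paralog of a subunit of the Integrator complex, and the Ints6l mRNA was at 1.82 and 5.56 RPKM. Among the 8402 other FANTOM3 clones detected in either library, 411 were found in oil only and 1483 in CCl4 only.

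The 10 most abundant clones with a gene name were H2bu1-ps, Cpb2 and Nckap1l, given above, and 7 more. fantom3_4930545K18, with the number of Tob2 (chr15:81848270-81858326), a member of an antiproliferative family, was at 20.6 and 23.4 RPKM, a log2 ratio of 0.18 whose interval of -0.027 to 0.39 includes 0. fantom3_4930570C03, with the number of the heme transporter Slc48a1 (chr15:97784365-97792692), was called higher at 13.8 and 30.0 RPKM (log2 ratio 1.12, interval 0.94 to 1.31), and its mRNA read 14.2 and 30.4 RPKM. fantom3_4930445G01, with the number of the copper importer Slc31a1 (chr4:62360583-62391769), was at 25.6 and 17.6 RPKM (log2 ratio -0.54), beside 19.3 and 14.3 RPKM for the mRNA. fantom3_4930479H08, with the number of the serine protease Prss23 (chr7:89507783-89527187), was called higher at 7.61 and 19.0 RPKM (log2 ratio 1.32, interval 1.05 to 1.60). The Prss23 mRNA was below its clone at 3.81 and 9.69 RPKM. Scaled to the median mRNA, the clones of Slc48a1 (0.79) and Prss23 (0.997) are no longer called. fantom3_4933437I03 belongs by number to Oip5os1 (chr2:119594296-119600746), a conserved lncRNA also known as Cyrano that binds miR-7, and was at 9.11 and 16.7 RPKM (log2 ratio 0.87), while the RefSeq entry of the gene was at 9.30 and 16.9 RPKM. fantom3_4931422A03, with the number of the coding gene 4931422A03Rik (chr2:103992493-104028361), was level at 13.1 and 12.04 RPKM.

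The exception was fantom3_4930482L21, with the number of Serpinb6a (chr13:33917918-34002794), an intracellular inhibitor of serine proteases. The clone was level, at 13.9 RPKM in oil and 14.5 RPKM in CCl4 (log2 ratio 0.056, interval -0.083 to 0.20), whereas the Serpinb6a mRNA was at 23.5 and 76.7 RPKM (log2 ratio 1.70). Across the 64 pairs of a coding-named clone and its mRNA with both measured in both libraries, it was the only pair whose log2 ratios differed by more than 0.5.

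The clones otherwise had ratios close to those of their genes. The 64 pairs came from 63 genes, the sign of the ratio was the same in 58, and the median difference of clone minus mRNA was -0.030 on the log2 scale (quartiles -0.14 and 0.085). Across these pairs Pearson's r was 0.92 and Spearman's rho 0.89, given as a description, since the pairs share both libraries and possibly reads. Of the clones 6 were called higher and 4 lower, and of the mRNAs 8 higher and 3 lower, with 5 pairs called higher and 2 called lower in both. The shares over all mRNA genes, given above, were 15.1% higher and 5.59% lower. The pairs called higher in both were Slc29a3, Them6, Nckap1l, Prss23 and Slc48a1, and those called lower in both were Cpb2 and 4933411K16Rik. A clone was called and its mRNA not for Mgat5, a glycosyltransferase that branches N-glycans (clone fantom3_4930471A21 at 1.199 and 2.75 RPKM, mRNA at 4.34 and 7.26 RPKM), and for Ppara and Mmd2. An mRNA was called and its clone not for Serpinb6a, Frmd8 (log2 ratio 1.05 for the mRNA and 0.97 for the clone), Mfsd13a (1.02 and 0.99) and Sdhaf3 (-1.15 and -0.89). Scaled to the median mRNA, the calls of clone and mRNA differed in 3 pairs in place of 7, namely Serpinb6a, Prss23 and Tmem243, with 3 pairs called higher and 6 called lower in both. The level of the clone was below that of the mRNA in 46 pairs and above it in 18, at a median of 72.9% of the mRNA (quartiles 42.7% and 102.4%). RPKM is corrected for length, so the comparison is of reads per base. The mRNA was the gene's transcript with the highest mean RPKM, a choice that favours clone levels below it.

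Clones named after lncRNA genes had log2 ratios close to those of the gene's own RefSeq entry, while the levels were the same for some clones and not for others. Of the 34 detected, 28 had a RefSeq entry in the same table, and 11 of these had the same values in both libraries as that entry. In 3 cases the RefSeq entry was listed at 0 in both libraries (4932441J04Rik, 4933421O10Rik and 4930507D05Rik). Of 20 pairs measured in both libraries, all 20 had log2 ratios within 0.5 of each other, and the sign differed in the pair of 4930481A15Rik (-0.20 for the clone and 0.18 for the entry). In 9 of these 20 pairs both values were the same, so their ratios are equal by construction. The pairs of Acss2os, 4933433G19Rik and 4933416M07Rik had nearly the same ratios. Clone and entry may share reads, which was not tested, so the closeness of the ratios is a description only. In oil the level of the clone equalled that of the entry in 9 pairs, was below it in 7 and above it in 4. The entry was likewise the one of the gene with the highest mean RPKM, which favours clones below it. Dleu2 was among the pairs that differed in level, with its clone fantom3_4932411A06 at 2.27 and 3.48 RPKM and the entry at 5.12 and 6.33 RPKM. The lncRNA-named clones called higher were fantom3_4930405P13 of Scpep1os (1.89 and 4.02 RPKM, a call that ends when scaled to the median mRNA) and fantom3_4930455G09 of 4930455G09Rik (1.196 and 3.05 RPKM), and these clones and pairs were chosen after their values were seen.

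**Figure D5:**
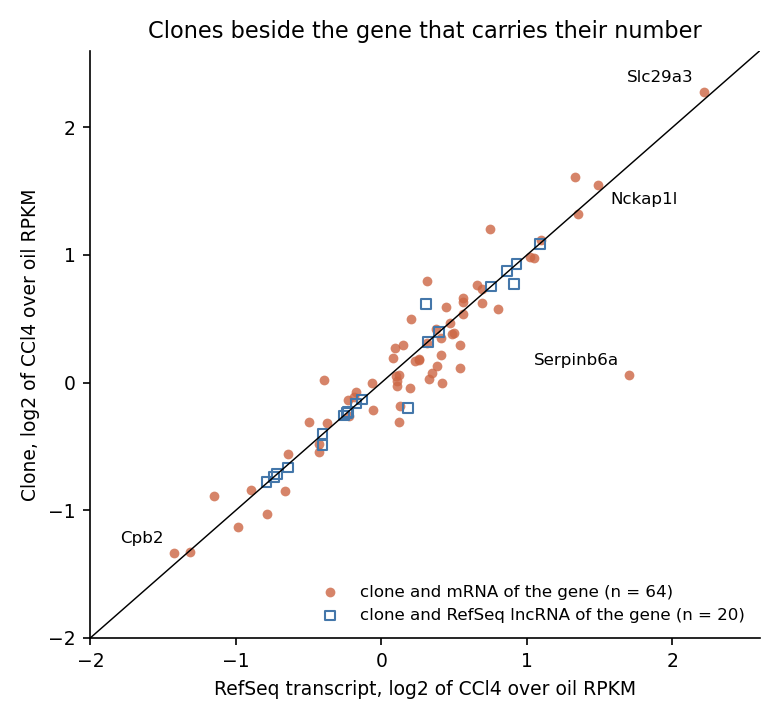
log2 ratio of CCl4 over oil RPKM of a clone (vertical) against that of the RefSeq transcript of the gene with its number (horizontal), for 64 clones with an mRNA (filled circles) and 20 with a RefSeq lncRNA (open squares), with equality as a line. Serpinb6a lies off the line, at 1.70 for the mRNA and 0.056 for the clone, and the other pairs are within 0.5 of it. In 9 of the 20 lncRNA pairs clone and entry have the same values, so these lie on the line by construction.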

How the data were processed

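RNA-seq of primary hepatocytes gave 1 oil and 1 CCl4 library. According to the submitters' processing notes, CASAVA 1.4, TopHat2 and the build mm10 were used; the counting program, its use of strand and the annotation version are not given in the sources used here. The authors deposited RPKM values for annotated lncRNAs and mRNAs, with every value under 1 listed as 0, and read counts with RPKM for new lncRNAs. Their columns of log2 change, p-value and q-value were not used.

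Clones were selected by identifier, and log2 of the ratio of CCl4 to oil RPKM was taken without a pseudocount among clones at 1 RPKM or more in both libraries, with a call at an absolute value of at least 1. A gene's mRNA was represented by the transcript with the highest mean RPKM. The named clones are the 8 with the highest mean, the 8 highest and 8 lowest ratios at a mean of at least 2 RPKM, the 5 highest of those listed at 0 in either library, and the 10 most abundant with a gene name. The clones, marker lists and rules were chosen with earlier results of these data known. Library totals were searched on RefSeq genes shorter than 400 bases, where they gave whole reads (within 0.05) for 213 of 225 genes in oil and 227 of 240 in CCl4. A clone's reads are the smallest whole numbers that give both RPKM values. The same search on 1397 new lncRNAs, whose deposited counts and RPKM rest on other totals (62438197 and 70960849 reads), gave the deposited counts in 82.1%. This checks the search and not the totals used for the clones, and smallest whole numbers are lower bounds by construction. PCR copies are not independent molecules. The scripts were tested on simulated data. Alternatives were another scaling, other minimums, pseudocounts and thresholds. The scripts ran in Python 3.11.15 with matplotlib 3.10.9, pandas 2.3.3, scipy 1.17.1 and numpy 2.4.6.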

Additional observations from a re-analysis of the deposited data

How the results depend on the processing

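Scaled to the median mRNA, 13 clones were higher and 23 lower, and the median log2 ratio was -0.14 in place of 0.18. Background shares were not counted under this scaling. With 2 RPKM or more required in both libraries, 13 were higher and 4 lower, and with 5 RPKM, 7 and 3, at a median of 0.077. A pseudocount of 1 RPKM left 16 and 4, and, when clones at 1 RPKM or more in either library were counted with a listed 0 as 0, gave 56 and 19. In that last count each of the 40 and 15 clones listed at 0 in 1 library is called by construction, since 1 RPKM or more against 0 gives a log2 ratio of at least 1 with this pseudocount. At an absolute log2 ratio of at least 2, 1 was higher and 0 lower. Without the coding-named clones, an alternative chosen after seeing the data, 3 were lower and 22 higher. The shares detected in oil and CCl4 were 8.10% and 9.33% at 2 RPKM, and 3.74% and 4.31% at 5 RPKM. The stricter minimums and thresholds and the pseudocount lower the counts by construction. The median of the clones minus that of the other FANTOM3 clones stayed between -0.063 and -0.108. Counting entries with identical values once could move no count or share of the clones, since their detected members held no such pairs. Values under 1 RPKM are not in the files, which limits shares and ratios of low clones. No paired analysis was possible because each group has 1 library.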
